A study of Mus musculus with 18 samples.

Results

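The ribosome biogenesis and RNA polymerase I (Pol I) genes were followed in nascent RNA of mouse fetal liver cells. The set was named by symbol: 47 genes for Pol I and its factors, nucleolar proteins, the protein cores of small nucleolar ribonucleoproteins (snoRNPs) and assembly factors of both ribosomal subunits. Of these, 46 were matched in a count table of 54232 gene identifiers and all 46 passed the filter on low counts, while Noc2l was not analysed here. Nascent RNA came from 4sU-seq, in which cells take up 4-thiouridine (4sU) and RNA made during the labelling time is biotinylated, purified and sequenced. The cells were from livers of C57BL/6 embryos aged e12.5 to e13.5, rested for 6 h after sorting and labelled with 500 µM 4sU for 45 min in every group, and the labels give no other agent or allele. Lineage-negative cells were sorted by CD71, the transferrin receptor, and Ter119, a surface marker of maturing erythroid cells, into S0-Low (Ter119-, and CD71- or CD71 low depending on the label), S0-Medium (CD71 medium, Ter119-), S1 (CD71 high, Ter119-), S2 (CD71 high, Ter119 medium) and S3 (CD71 high, Ter119 high). Lineage-positive (Lin+) cells formed the sixth group, and each group had 3 replicates, 18 libraries in all.

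Ribosome production starts in the nucleolus, where Pol I transcribes the ribosomal DNA repeats into one long precursor RNA. The factors UBF (Ubtf), SL1 and TIF-IA (Rrn3) bring Pol I to the promoter, box C/D and box H/ACA snoRNPs guide chemical modification of the precursor, and large sets of assembly factors fold, cut and export the small and large subunits. Erythroid progenitors grow and divide rapidly and need many ribosomes to make globin, whereas late erythroblasts shrink, condense their nuclei and wind down ribosome production. 4sU-seq reads of these genes report transcription of their messenger RNA precursors by RNA polymerase II, not Pol I activity itself.

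The total count per library ran from 9452476 in S0-Low replicate 3 to 40567976 in S1 replicate 1, so that 3 counts equalled 0.317 and 0.0739 CPM (counts scaled to library size) of these totals. Levels below are CPM on library sizes adjusted by the trimmed mean of M values (TMM), in replicates 1, 2 and 3 in that order, and in bulk samples fewer cells of a type and less RNA per cell cannot be told apart. The libraries numbered 3 stood apart for these genes in all 6 populations. Replicate 3 was below both other replicates for 45 of the 46 genes in S0-Low, 43 in S0-Medium, 41 in S3 and 46 in each of S1, S2 and Lin+, against 27.5% (S3) to 51.5% (S0-Low) of all tested genes. Its mean level of the 46 genes was lower than that of replicates 1 and 2 by 0.88 (S0-Medium) to 2.36 (S2) on the log2 scale, while the mean of all tested genes shifted by -0.33 (S0-Low) to 0.03 (Lin+). The summed level of 10 erythroid marker genes, globin genes included, moved with this: it was 232, 392 and 694 CPM in S0-Low, 1433, 1650 and 4950 in S1, 4138, 5340 and 10838 in S2 and 26758, 39741 and 47277 in S3. The erythroid markers were thus highest in replicate 3 of each of these populations, and S0-Medium had the same order. Lin+ did not: its erythroid sum was 138, 152 and 124 CPM, lowest in replicate 3, where the 46 genes were lowest too. The part of the erythroid markers in the low ribosome biogenesis levels was not tested, and the sources used here do not say what a shared replicate number stands for. In Lin+ the erythroid sum was only 124 to 152 CPM and the sum of 9 myeloid markers 2964 to 5673 CPM, so these markers went against the erythroblast label that Lin+ carries, although Itgam, one of the 9, was listed at 0 in every library. The sum of 8 stem and progenitor markers declined from 1760 to 2558 CPM in S0-Low to 28.4 to 29.8 in S3. In Lin+ this sum was 1522 to 2308 CPM, overlapping S0-Low. The myeloid sum was 853, 507 and 421 CPM in S0-Low and at most 1.63 CPM from S1 to S3. Macrophage, lymphoid, hepatocyte and endothelial sums stayed at or below 303 CPM (endothelial, Lin+ replicate 3), and the megakaryocyte sum was 312, 287 and 177 CPM in S0-Low, 49.4, 98.0 and 40.1 in S3 and up to 1485 in Lin+. S0-Low, which the study describes as blood stem cells, progenitors and burst-forming erythroid cells, thus held more RNA of these marker lists than S3. The part of this in the differences between S0-Low and S3 was not tested.

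In each replicate number, the 46 genes as a group were transcribed at lower levels in S3 than in any earlier erythroid population. From S0-Low to S2 their levels were high and similar in replicates 1 and 2, while in replicate 3 they declined from S0-Medium on. Their mean log2(CPM + 0.5) was 7.14 ± 0.82 for S0-Low, 7.47 ± 0.54 for S0-Medium and 7.35 ± 0.94 for S1 (SD, n = 3). It was 6.92 ± 1.37 for S2 and 5.15 ± 1.23 for S3, with Lin+ at 6.57 ± 0.59. In replicate 3 it was 6.19, 6.88, 6.27, 5.34 and 3.74 from S0-Low to S3. S2 and S3 overlapped, as S2 replicate 3 lay below S3 replicates 1 and 2 (5.74 and 5.98). The largest step was from S2 to S3, where the mean differed by -1.76, and within the pairs of equal replicate number by -2.06, -1.62 and -1.60. All tested genes differed by -0.31 at this step, and by -0.49, -0.15 and -0.29 within the pairs. The difference of the 46 genes at this step was thus larger than that of all tested genes in each pair. With the median gene of each library in place of the mean, the contrast was smaller. The 46 genes then averaged 6.72 in S2 and 5.22 in S3, and all tested genes 3.26 and 2.51. The smaller earlier steps were 0.33 between S0-Low and S0-Medium, -0.12 on to S1 and -0.44 on to S2, smaller than the unpaired SD between libraries. Within pairs of equal number, S0-Medium minus S0-Low was 0.04, 0.26 and 0.69, and S2 minus S1 -0.10, -0.29 and -0.93, each of one sign, while S1 minus S0-Medium was mixed. By mean CPM, 20 genes were highest in S0-Medium, 20 in S1, 3 in S2 (Bysl, Noc4l and Abcf2), 2 in S0-Low (Polr1e and Gar1) and 1 in S3 (Ubtf), and 44 were lowest in S3. Library-wide values moved with S3 as well: 9471 to 12681 genes had at least 10 counts, against 11976 to 15828 in S0-Low, and 2571 to 6015 tested genes were at 0, against 454 to 3756. TMM factors were 0.579 to 0.735 in S3 and 1.10 to 1.28 in S0-Low, and the part of these in the lower level was not tested.

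**Figure D1:**
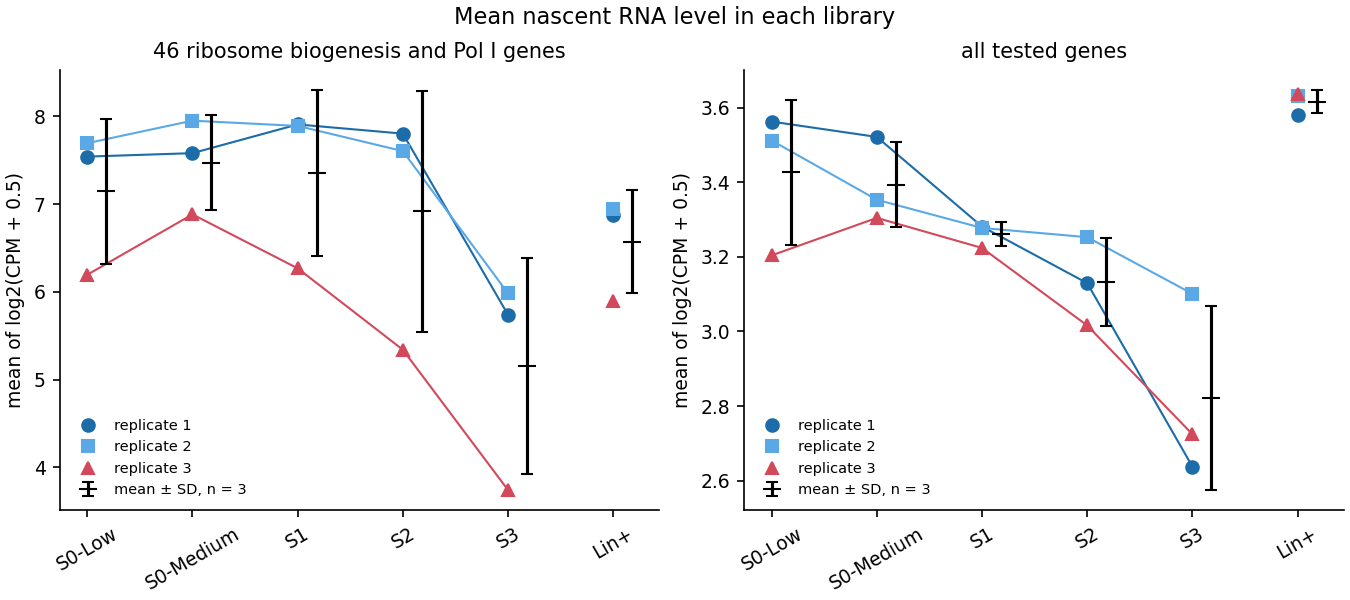
Mean log2(CPM + 0.5) per library over the 46 genes (left) and over all tested genes (right, with its own narrower axis) by population. Points are the 3 replicates, lines join replicates of one number through the 5 erythroid populations and black marks give mean ± SD (n = 3); replicate 3 lay lowest in every population on the left, and all 3 lines went down from S2 to S3.

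The lower level in S3 was also seen in shares of each library's total count and in ranks within a library. The 46 genes together took 1.45, 1.77 and 0.631% of the counts of S0-Low libraries and 1.53, 2.17 and 0.947% of those of S0-Medium. For S1 and S2 these shares were 1.83, 2.04 and 0.596%, and 1.58, 1.47 and 0.288%, and for S3 they were 0.291, 0.325 and 0.180%. Lin+ libraries gave 0.857, 0.972 and 0.468%. Ranked within each library by counts per kb of transcript among 13106 genes, the median of the 46 genes stood at percentile 91.7, 92.7 and 78.0 in S0-Low and 91.1, 88.5 and 59.9 in S2, against 70.2, 65.8 and 51.8 in S3. The rank in S3 replicates 1 and 2 was still above that of S2 replicate 3. At S0-Low the order of mean levels per kb was led by Npm1 (595 CPM per kb), Taf1d (287), Nop56 (261), Ncl (256) and Gnl3 (187), and ended with Polr1e (14.4), Nip7 (18.6) and Bysl (20.2). Npm1 was first in each S0-Low library, and the places below it changed between libraries. In S3 the highest means per kb were those of Ubtf (189 CPM per kb), Nop56 (103), Npm1 (90.9) and Ncl (81.0). The place of Ubtf rested on S3 replicate 3, without which Ubtf was at 118 CPM per kb and Nop56 at 123.

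Promoter windows of 4 genes are shown because they stand for the patterns described next: Polr1b had the largest fall, Ubtf rose, and Wdr43 and Rrn3 carry the E-box. RefSeq sequences (GRCm38.p6) from 250 bases before to 50 after the start were at hand for 41 of the 46 genes, as 50 windows, and are printed on the strand of the gene. In Wdr43 (chr17:71615965-71616264, plus strand) and Rrn3 (chr16:13780449-13780748, plus strand) capitals mark the E-box CACGTG, a palindrome. In Polr1b (chr2:129100746-129101045, plus strand) and in the Ubtf window with the most copies of its 6 (chr11:102317822-102318121, minus strand), capitals mark the GC box GGGCGG on either strand, and overlapping copies run together.
Wdr43: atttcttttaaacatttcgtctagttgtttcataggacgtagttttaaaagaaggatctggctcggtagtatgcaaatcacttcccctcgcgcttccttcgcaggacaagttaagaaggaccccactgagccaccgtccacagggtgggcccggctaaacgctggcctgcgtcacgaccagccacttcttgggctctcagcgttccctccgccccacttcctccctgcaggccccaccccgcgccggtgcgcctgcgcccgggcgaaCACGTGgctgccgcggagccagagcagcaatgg
Rrn3: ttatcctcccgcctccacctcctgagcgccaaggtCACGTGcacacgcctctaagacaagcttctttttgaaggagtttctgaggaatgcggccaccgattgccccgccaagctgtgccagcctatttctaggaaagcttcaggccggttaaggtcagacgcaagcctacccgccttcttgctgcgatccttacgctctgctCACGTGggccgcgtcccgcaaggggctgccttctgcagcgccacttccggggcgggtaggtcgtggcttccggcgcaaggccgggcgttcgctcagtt
Polr1b: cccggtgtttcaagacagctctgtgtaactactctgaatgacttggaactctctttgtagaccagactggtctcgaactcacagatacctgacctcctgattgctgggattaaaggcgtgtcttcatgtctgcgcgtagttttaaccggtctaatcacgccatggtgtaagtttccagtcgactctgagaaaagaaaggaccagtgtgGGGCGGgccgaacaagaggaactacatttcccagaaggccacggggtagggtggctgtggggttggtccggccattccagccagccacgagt
Ubtf: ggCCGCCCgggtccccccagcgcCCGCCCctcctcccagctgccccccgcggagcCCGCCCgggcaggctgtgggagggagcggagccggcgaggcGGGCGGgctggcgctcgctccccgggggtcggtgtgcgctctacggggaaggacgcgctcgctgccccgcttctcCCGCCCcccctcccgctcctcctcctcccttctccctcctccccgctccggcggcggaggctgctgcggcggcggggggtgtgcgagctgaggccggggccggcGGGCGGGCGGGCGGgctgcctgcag

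The E-box, the sequence read by MYC and other basic helix-loop-helix proteins, stood in 8 of the 50 windows (16%), against 7.15% of all 32851 windows. These windows belonged to Ltv1, Nop2, Pes1, Rrn3, Tsr1, Utp18, Utp20 and Wdr43. Of their 9 copies, 8 lay from 100 bases before to 50 after the start. Rrn3 held 2, whose first bases were at -215 and -48, and Wdr43 had 1 at position 18 after the start. CCGGAAG, a core bound by ETS proteins, was found in 16 windows (32.0% against 8.86%) and GGGCGG in 37 (74.0% against 35.7%), each searched on both strands. The GC box was thus the most frequent of the motifs searched. GCATGCGC (NRF1) and TATAAA each occurred in 2 windows (4.00%), against 2.71% and 13.6% of all windows, and AAGATGGC (YY1) in 0, against 2.75%. In the 112 windows of other ribosome biogenesis genes the E-box stood in 20.5%, CCGGAAG in 41.1% and GGGCGG in 60.7%. The median GC content of the 50 windows was 59.3%, and 52.7% over all windows. Members with an E-box had a median log2 fold change of -1.79 in S3 against S0-Low (n = 8) and those without one -1.89 (n = 33). These matches are letters in a window and were not tested for binding.

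S3 was compared with S0-Low to ask how the genes differ between the ends of the erythroid series. Transcription of the group was lower in S3: 17 of 46 genes passed edgeR's quasi-likelihood test (Benjamini-Hochberg adjusted p under 0.05) as lower, when 22.4% of all 16555 tested genes did, and 1, Ubtf, as higher (13.4% of all). At an unadjusted p under 0.05, 34 were lower (30.5% of all) and 1 higher (17%). The log2 fold changes were negative for 44 genes, with a median of -1.90 against -0.54 over all tested genes. With library totals in place of TMM both medians moved down, to -2.65 and -1.36, 42 genes passed as lower and 0 as higher, and 37.6% and 6.98% of all tested genes did. Within pairs of equal replicate number, 41 genes were lower in S3 in all 3 pairs (33.6% of all), Ubtf and Bysl were higher in all 3 (21.3%), and Polr1c, Utp18 and Ebna1bp2 were mixed. For 25 genes every S3 library lay below every S0-Low library (25.9% of all), and for 1, Ubtf, every one lay above (16.6%).

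The number called depended on the libraries numbered 3. Without them, an alternative chosen after seeing the data, 43 of the 46 genes passed as lower in S3 (24% of all 17255 genes tested there) and 0 as higher (13.7%), and the median was -1.82. Leaving out S3 replicate 3 alone gave 7 lower and 0 higher (14.7% of all tested genes lower and 9.85% higher), and leaving out S0-Low replicate 1 or 2 gave 8 lower and 1 higher each (17.2% and 17.4% of all lower, 9.31% and 9.0% higher), so the lower calls were about as frequent as among all tested genes. With no filter 38 were lower and 1 higher (14.3% and 7.36% of all), and by DESeq2 33 and 1 (17.4% and 8.90%). The size of the fall was similar with and without the libraries numbered 3, while the number past the threshold was not.

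**Figure D2:**
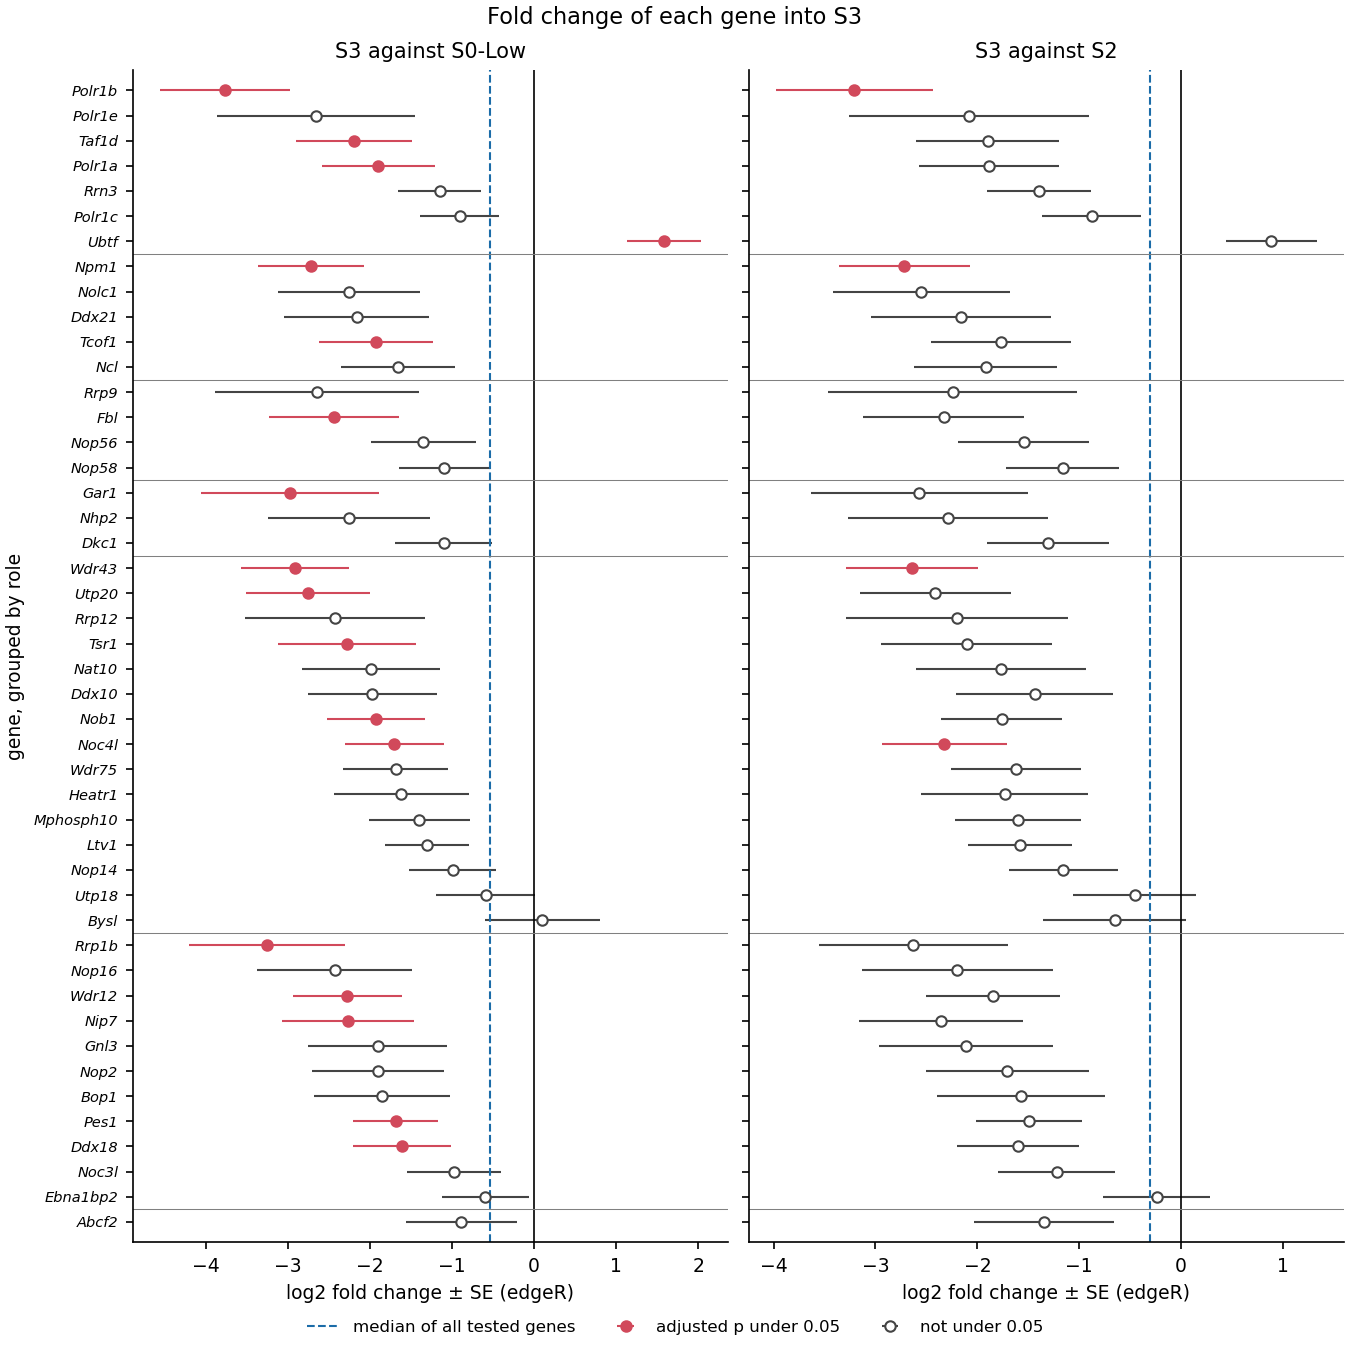
Log2 fold change from edgeR ± SE (derived from its F statistic) for each of the 46 genes, S3 against S0-Low (left) and S3 against S2 (right), in blocks by role. Filled red points passed an adjusted p under 0.05, the dashed line is the median of all tested genes, and Ubtf was the only gene of the 46 with a positive value in both comparisons.

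Among the 7 genes of the Pol I machinery, 3 passed as lower in S3 than in S0-Low (22.4% of all tested genes did) and 1 as higher (13.4% of all), the latter at the share of all genes. Polr1b (chromosome 2, 129100970 to 129128060, GRCm38.p6), which encodes the second-largest catalytic subunit, had the largest fall of all 46 genes. Polr1b measured 128, 167 and 120.3 CPM in S0-Low, 177, 180.1 and 105 in S0-Medium and 177, 145 and 45.7 in S1. Its levels were 162, 103 and 18.8 CPM in S2, 15.5, 13.3 and 1.84 in S3 and 60.6, 81.9 and 33.6 in Lin+. Every S3 library was below every library of S0-Low, S0-Medium, S1, S2 and Lin+. In edgeR's test the log2 fold change was -3.76 ± 0.79 (SE, adjusted p = 0.00209), and Polr1b passed in all 16 alternative settings. Polr1a encodes the largest subunit. Polr1a (chromosome 6, 71909053 to 71979435) was at 315, 289 and 143 CPM in S0-Low, 411, 258 and 76.3 in S2 and 94.9, 95.4 and 10.9 in S3. S3 was below S0-Low in every library, from 249 ± 92.9 to 67.1 ± 48.7 CPM (SD, n = 3), and the log2 fold change was -1.89 ± 0.69 (adjusted p = 0.042, edgeR). Polr1e, a further subunit, had 0 counts in S3 replicate 3 against 17.8 CPM in replicate 2, and did not pass (-2.65 ± 1.20, adjusted p = 0.0932, edgeR).

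Polr1c (chromosome 17, 46243920 to 46248045), a subunit shared with RNA polymerase III, had the smallest change in this group. Polr1c measured 62.6, 65.6 and 19.5 CPM in S0-Low, 48.0, 69.9 and 46.3 in S0-Medium and 65.9, 68.1 and 38.9 in S1. Its levels were 50.6, 70.7 and 24.7 CPM in S2, 20.7, 32.7 and 25.7 in S3 and 39.4, 49.7 and 25.6 in Lin+. S3 overlapped S0-Low because S0-Low replicate 3 was lower than all S3 libraries, and the log2 fold change of -0.90 ± 0.48 did not pass (adjusted p = 0.15, edgeR). Taf1d (chromosome 9, 15305953 to 15316997), a subunit of the promoter factor SL1, had the highest level per kb of the 7 genes in S0-Low. Taf1d measured 436, 561 and 175 CPM in S0-Low, 462, 641 and 175 in S0-Medium and 584, 652 and 133 in S1. Its levels were 454, 434 and 72.4 CPM in S2, 95.0, 111 and 51.3 in S3 and 242, 267 and 143 in Lin+. All S3 libraries were below all S0-Low libraries, with a log2 fold change of -2.19 ± 0.71 (adjusted p = 0.026, edgeR). Rrn3, which recruits Pol I, was at 89.9, 110.4 and 71.8 CPM in S0-Low and 51.5, 61.2 and 10.1 in S3. These did not overlap, but the log2 fold change of -1.15 ± 0.50 did not pass (adjusted p = 0.0839, edgeR).

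Ubtf (chromosome 11, 102304560 to 102323649), the gene of the ribosomal DNA binding factor UBF, went the other way. Ubtf measured 384, 371 and 137 CPM in S0-Low, 375, 422 and 266 in S0-Medium and 493, 463 and 314 in S1. Its levels were 545, 487 and 417 CPM in S2, 451, 659 and 1556 in S3 and 317, 237 and 167 in Lin+. The mean level was higher at each step from S0-Low to S3, and each S3 library was above each S0-Low library. From S2 to S3, however, replicate 1 went down, from 545 to 451 CPM, and the largest rise was in replicate 3, from 417 to 1556 CPM. The log2 fold change of S3 against S0-Low was 1.58 ± 0.45 (adjusted p = 0.0142, edgeR), and against S2 0.89 ± 0.44 (adjusted p = 0.216, edgeR). The pairs of equal replicate number differed by 0.23, 0.83 and 3.50 on the log2 scale, so the third was by far the largest. Without S3 replicate 3 the log2 fold change was 0.88 (adjusted p = 0.116), without S0-Low replicate 3 1.20 (adjusted p = 0.0576) and without the libraries numbered 3 0.56 (adjusted p = 0.0765), all by edgeR. With library totals it was 0.69 (adjusted p = 0.162), so the direction was kept in these settings and the call was not. Over all 16 alternatives Ubtf passed in 11 and had a positive sign in each.

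**Figure D3:**
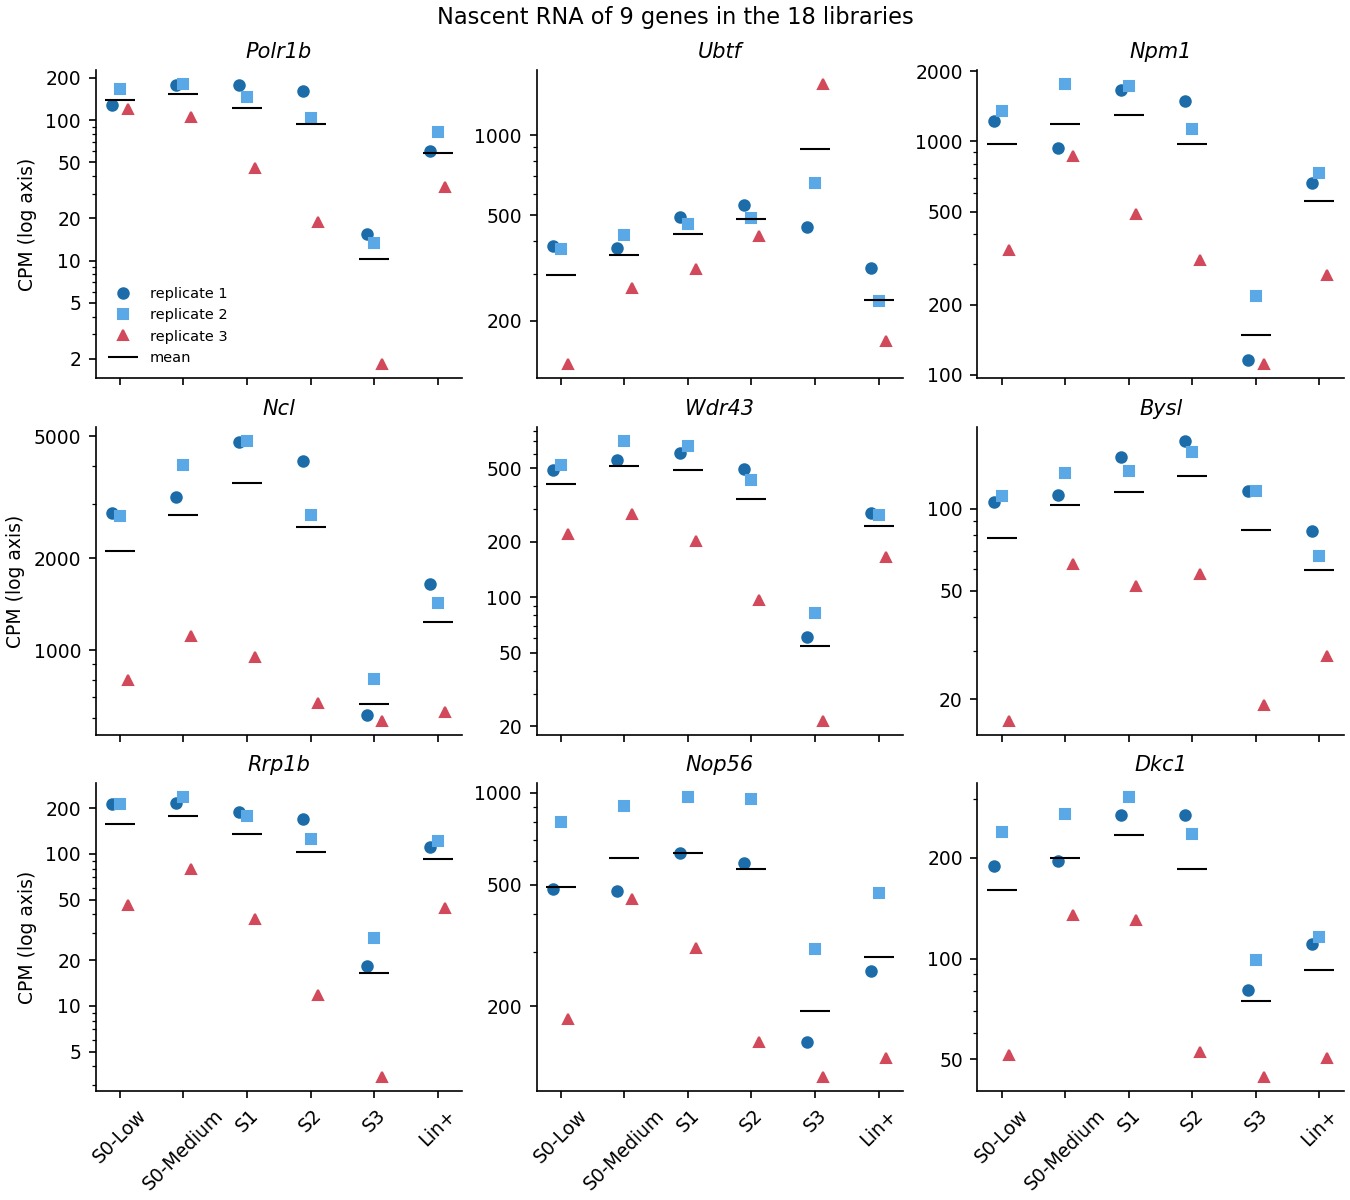
CPM (log axes, one range per gene) of 9 genes in the 6 populations, with the 3 replicates as points and their mean as a bar. By mean, Polr1b, Npm1, Wdr43 and Rrp1b were lowest in S3 and Ubtf highest, and Bysl in S3 lay within its S0-Low range or just above it.

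Of the 5 nucleolar scaffold and chaperone genes, 2 passed as lower in S3 than in S0-Low (22.4% of all tested genes did) and all 5 were lower in each pair (33.6% of all). Npm1 (chromosome 11, 33152498 to 33164142), encoding the histone chaperone nucleophosmin, had the largest fall and the highest level per kb. Npm1 measured 1220, 1352 and 344 CPM in S0-Low, 936, 1757 and 864 in S0-Medium and 1661, 1727 and 489 in S1. Its levels were 1492, 1133 and 310.0 CPM in S2, 116, 217 and 111 in S3 and 664, 734 and 268 in Lin+. S3 was below all 5 other populations in every library. Its log2 fold change was -2.71 ± 0.65 (adjusted p = 0.00477, edgeR), and Npm1 passed in all 16 alternatives. Since 35.0% of its 31-base stretches also occur in other annotated transcripts, its level is uncertain.

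Ncl (chromosome 1, 86344719 to 86359455), encoding nucleolin, had the smallest change of this group and the highest mean CPM of all 46 genes in every population except S3, where Ubtf was higher. That exception rested on S3 replicate 3, since in S3 replicates 1 and 2 Ncl was above Ubtf. Ncl measured 2799, 2742 and 798 CPM in S0-Low, 3169, 4034 and 1115 in S0-Medium and 4777, 4811 and 947 in S1. Its levels were 4162, 2765 and 673 CPM in S2, 615, 805 and 585 in S3 and 1645, 1427 and 625 in Lin+. S0-Low replicate 3 lay between the S3 libraries, and the log2 fold change of -1.66 ± 0.70 did not pass (adjusted p = 0.072, edgeR). Tcof1 encodes treacle, a Pol I cofactor. Tcof1 was at 335, 301 and 68.1 CPM in S0-Low, 319.5, 242 and 74.7 in S2 and 79.6, 83.5 and 23.0 in S3. S0-Low replicate 3 lay within the S3 range, and the gene passed at -1.92 ± 0.69 (adjusted p = 0.041, edgeR). Nolc1, a snoRNP chaperone, and Ddx21, an RNA helicase that binds ribosomal and snoRNA, did not, at -2.25 ± 0.86 and -2.16 ± 0.88 (adjusted p = 0.0518 and 0.0662, edgeR).

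Of the 4 protein genes of box C/D snoRNPs, which guide ribose methylation, 1 passed as lower, about the 22.4% of all tested genes. This was Fbl, the methyltransferase fibrillarin. Fbl (chromosome 7, 28168893 to 28179269) was at 90.6, 86.4 and 48.2 CPM in S0-Low, 122, 82.6 and 4.77 in S2 and 17.3, 18.8 and 5.57 in S3. S3 was below S0-Low in every library, with a log2 fold change of -2.44 ± 0.79 (adjusted p = 0.0265, edgeR), although 88.2% of its 31-base stretches occur in other transcripts. Rrp9 (chromosome 9, 106477309 to 106485415), a protein specific to one snoRNP of early processing, had the largest change. Rrp9 measured 86.1, 87.3 and 11.0 CPM in S0-Low, 84.4, 101 and 51.6 in S0-Medium and 85.5, 77.0 and 17.1 in S1. Its levels were 67.3, 67.7 and 5.28 CPM in S2, 19.7, 9.96 and 0 in S3 and 38.2, 50.7 and 17.0 in Lin+. S0-Low replicate 3 lay within the S3 range and S3 replicate 3 had 0 counts, where 3 counts would be 0.172 CPM. Its log2 fold change of -2.64 ± 1.24 did not pass (adjusted p = 0.104, edgeR).

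Nop58 (chromosome 1, 59684961 to 59711510), a core protein, had the smallest change. Nop58 measured 329, 431 and 297 CPM in S0-Low, 338, 566 and 341 in S0-Medium and 494, 621 and 229 in S1. Its levels were 478, 492 and 145 CPM in S2, 225, 226 and 45.5 in S3 and 173, 223 and 123 in Lin+. S3 was below S0-Low in every library, with a log2 fold change of -1.09 ± 0.56 that did not pass (adjusted p = 0.133, edgeR). Nop56 (chromosome 2, 130274367 to 130279313), its partner, had the highest level per kb in this group. Nop56 measured 483, 805 and 182 CPM in S0-Low, 479, 904 and 448 in S0-Medium and 635, 965 and 309 in S1. Its levels were 587, 955 and 153 CPM in S2, 153, 308 and 117 in S3 and 262, 469 and 136 in Lin+. S3 overlapped S0-Low at replicate 3, and the log2 fold change was -1.35 ± 0.64 (adjusted p = 0.108, edgeR).

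In box H/ACA snoRNPs, which guide pseudouridylation, 1 of 3 genes passed as lower, against 22.4% of all tested genes. Gar1 (chromosome 3, 129824912 to 129831407), a core protein, had the largest change. Gar1 measured 58.5, 44.8 and 75.4 CPM in S0-Low, 52.9, 62.3 and 32.0 in S0-Medium and 62.8, 69.3 and 23.4 in S1. Its levels were 64.0, 60.4 and 11.1 CPM in S2, 6.21, 16.5 and 0 in S3 and 28.3, 32.3 and 15.1 in Lin+. It was the single gene of the 46 that was not lowest in replicate 3 of S0-Low. Every S3 library was below every S0-Low library, and the log2 fold change was -2.98 ± 1.08 (adjusted p = 0.043, edgeR). Dkc1 (chromosome X, 75095854 to 75109776), the pseudouridine synthase dyskerin, had the smallest change.

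Dkc1 measured 189.5, 239.6 and 51.7 CPM in S0-Low, 195, 271 and 135 in S0-Medium and 268, 303 and 130.1 in S1. Its levels were 268, 235 and 52.5 CPM in S2, 80.3, 99.4 and 44.3 in S3 and 110.3, 116 and 50.6 in Lin+. S0-Low replicate 3 lay within the S3 range, and Dkc1 did not pass at -1.10 ± 0.59 (adjusted p = 0.154, edgeR). Nhp2 (chromosome 11, 51619773 to 51623718), a core RNA-binding protein of the complex, had the highest level per kb of the 3 genes. Nhp2 measured 125, 135 and 27.7 CPM in S0-Low, 93.8, 126 and 86.9 in S0-Medium and 128, 125 and 45.1 in S1. Its levels were 142, 125 and 30.1 CPM in S2, 24.5, 35.7 and 0.287 in S3 and 68.4, 87.2 and 27.8 in Lin+. The S3 values spread from 5 counts in replicate 3 to 35.7 CPM in replicate 2, and the log2 fold change was -2.25 ± 0.98 (adjusted p = 0.0829, edgeR).

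For small subunit assembly, 5 of 15 genes passed as lower in S3 than in S0-Low, against 22.4% of all tested genes: Wdr43, Utp20, Tsr1, Nob1 and Noc4l. Wdr43 (chromosome 17, 71616178 to 71659031), part of the complex that binds the precursor as it is made, had both the largest fall and the highest level per kb. Wdr43 measured 492, 521 and 220.2 CPM in S0-Low, 555, 698 and 284 in S0-Medium and 604, 659 and 202 in S1. Its levels were 497, 432 and 96.8 CPM in S2, 60.7, 81.8 and 21.3 in S3 and 284, 277 and 166 in Lin+. S3 was below the 5 other populations in every library. The log2 fold change was -2.91 ± 0.66 (adjusted p = 0.00338, edgeR), and it passed in all 16 alternatives. Utp20, which encodes a large scaffold protein, passed in all of them too. Utp20 (chromosome 10, 88746607 to 88826814) was at 326, 354 and 138 CPM in S0-Low, 363, 243 and 41.4 in S2 and 59.1, 50.0 and 12.2 in S3. S3 was below S0-Low in every library, with a log2 fold change of -2.75 ± 0.76 (adjusted p = 0.0112, edgeR).

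Tsr1 encodes a protein that keeps late precursors from translating. Tsr1 (chromosome 11, 74898080 to 74909340) was at 195, 314 and 104 CPM in S0-Low, 202, 306 and 37.7 in S2 and 69.1, 53.7 and 3.74 in S3. Its S3 libraries were below all S0-Low libraries, and the log2 fold change was -2.28 ± 0.84 (adjusted p = 0.0455, edgeR). Nob1 encodes the endonuclease that makes the final cut of the small subunit RNA. Nob1 (chromosome 8, 107412489 to 107425038) was at 86.9, 118 and 85.8 CPM in S0-Low, 107, 111 and 43.4 in S2 and 36.3, 36.2 and 4.37 in S3. These groups did not overlap either, and the log2 fold change was -1.92 ± 0.60 (adjusted p = 0.0217, edgeR). Noc4l, whose product joins in nucleolar assembly of the small subunit, was likewise lower in every S3 library than in S0-Low. Noc4l (chromosome 5, 110648419 to 110653382) was at 66.5, 73.0 and 30.2 CPM in S0-Low, 137, 104 and 21.4 in S2 and 11.0, 28.9 and 12.3 in S3. Its log2 fold change was -1.70 ± 0.60 (adjusted p = 0.0386, edgeR). The other genes that did not pass, Nop14, Mphosph10, Wdr75, Utp18, Heatr1, Ltv1, Rrp12, Nat10 and Ddx10, had log2 fold changes from -2.43 (Rrp12) to -0.59 (Utp18). Among them, Nat10 acetylates ribosomal RNA, Ddx10 is an RNA helicase, Rrp12 and Ltv1 act in late assembly and export, and Nop14, Mphosph10, Wdr75, Utp18 and Heatr1 belong to early precursor complexes. Heatr1, which is also needed for Pol I transcription, was at 320.2, 319 and 108 CPM in S0-Low and 149, 75.3 and 20.3 in S3. Its groups overlapped at S0-Low replicate 3 and S3 replicate 1.

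Bysl (chromosome 17, 47599331 to 47611492), encoding bystin, a late small subunit factor, was the single gene of this group with a positive fold change. Bysl measured 106, 111 and 16.6 CPM in S0-Low, 112, 135 and 62.5 in S0-Medium and 155, 138 and 52.0 in S1. Its levels were 176, 161 and 57.7 CPM in S2, 116, 116 and 19.0 in S3 and 83.0, 67.3 and 28.7 in Lin+. Among the 5 erythroid populations it was highest in S2 and lowest in S0-Low by mean, and the pairs of S3 against S0-Low differed by 0.13, 0.06 and 0.19 on the log2 scale. The log2 fold change of 0.10 ± 0.70 was not distinguishable from 0 (adjusted p = 0.924, edgeR) and turned negative with library totals (-0.63) and in 7 other settings. The annotation places Bysl antisense to Ccnd3, and whether the counting used strand is not given in the sources used here.

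For large subunit assembly, 5 of 11 genes passed as lower, against 22.4% of all tested genes: Rrp1b, Wdr12, Nip7, Pes1 and Ddx18. Rrp1b (chromosome 17, 32036162 to 32062865), a nucleolar factor of early large subunit particles, had the largest fall. Rrp1b measured 211, 213 and 45.8 CPM in S0-Low, 217, 235 and 79.1 in S0-Medium and 189, 179 and 37.3 in S1. Its levels were 170.4, 124 and 11.8 CPM in S2, 18.2, 27.8 and 3.39 in S3 and 111, 122 and 43.8 in Lin+. Every S3 library was below every S0-Low library, and the log2 fold change was -3.25 ± 0.95 (adjusted p = 0.0157, edgeR). Pes1, Bop1 and Wdr12 form the PeBoW complex, which processes the large subunit RNA. Pes1 (chromosome 11, 3963975 to 3980004) was at 172, 157 and 87.4 CPM in S0-Low, 165, 165 and 35.2 in S2 and 56.1, 52.5 and 21.0 in S3. Bop1 (chromosome 15, 76452988 to 76477249) was at 116, 84.2 and 13.0 CPM in S0-Low, 95.6, 69.7 and 10.6 in S2 and 21.5, 30.9 and 6.61 in S3. Wdr12 (chromosome 1, 60071361 to 60098500) was at 168, 167 and 121 CPM in S0-Low, 193, 114 and 34.9 in S2 and 48.4, 40.9 and 5.46 in S3. S3 was below S0-Low in every library for Pes1 and Wdr12, while Bop1 overlapped. Their log2 fold changes were -1.69 ± 0.52 (adjusted p = 0.0211), -1.85 ± 0.83 (adjusted p = 0.0893) and -2.27 ± 0.67 (adjusted p = 0.0159, all edgeR). Nip7 encodes a factor for maturation of ribosomal RNA and Ddx18 an RNA helicase. Nip7 (chromosome 8, 107056877 to 107060931) was at 64.1, 91.3 and 13.7 CPM in S0-Low, 89.7, 83.3 and 7.34 in S2 and 6.21, 20.5 and 8.33 in S3. Ddx18 (chromosome 1, 121553835 to 121567980) was at 107, 124 and 74.1 CPM in S0-Low, 142, 123 and 39.4 in S2 and 50.7, 41.3 and 7.82 in S3. S0-Low replicate 3 lay within the S3 range for Nip7, and S3 was below S0-Low in every library for Ddx18. The log2 fold changes were -2.27 ± 0.80 (adjusted p = 0.0377) and -1.61 ± 0.60 (adjusted p = 0.0461, both edgeR). Ddx18 shares 67.3% and Wdr12 16% of 31-base stretches with other transcripts, so both levels are uncertain.

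Ebna1bp2 (chromosome 4, 118620799 to 118627776), a factor of early large subunit particles, had the smallest change. Ebna1bp2 measured 105, 106 and 36.8 CPM in S0-Low, 80.0, 115 and 57.7 in S0-Medium and 101, 116 and 31.0 in S1. Its levels were 72.3, 92.7 and 28.7 CPM in S2, 54.2, 48.4 and 61.1 in S3 and 76.3, 75.3 and 35.7 in Lin+. S3 varied little, and S0-Low replicate 3 lay below it. The log2 fold change was -0.59 ± 0.53 (adjusted p = 0.389, edgeR). Gnl3 (chromosome 14, 31012433 to 31019131), encoding the nucleolar GTPase nucleostemin, had the highest level per kb of the 11 genes.

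Gnl3 measured 336, 525 and 198 CPM in S0-Low, 327, 686 and 374 in S0-Medium and 518, 728 and 217 in S1. Its levels were 571, 606 and 47.6 CPM in S2, 104, 167 and 11.8 in S3 and 173, 267 and 88.0 in Lin+. All S3 libraries were below all S0-Low libraries, but S3 replicate 3 was far below the other S3 libraries, and the log2 fold change of -1.90 ± 0.85 did not pass (adjusted p = 0.0885, edgeR). The RNA methyltransferase gene Nop2 and the assembly factor genes Nop16 and Noc3l did not pass either, with log2 fold changes of -1.90 ± 0.80, -2.43 ± 0.95 and -0.97 ± 0.57 (adjusted p = 0.074, 0.0557 and 0.191, edgeR). Abcf2 (chromosome 5, 24565341 to 24577467), a soluble ATPase of the ABC-F family, formed a group of its own. Abcf2 measured 196, 230.2 and 61.5 CPM in S0-Low, 188, 254 and 90.0 in S0-Medium and 263, 255 and 81.9 in S1. Its levels were 333, 277 and 65.6 CPM in S2, 92.5, 144 and 28.0 in S3 and 162, 142 and 85.4 in Lin+. S0-Low replicate 3 lay within the S3 range, and the log2 fold change was -0.88 ± 0.68 (adjusted p = 0.319, edgeR).

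S3 was compared with S2 to see the last step of the series. This comparison shares the S3 libraries with the one above. The genes were again lower in S3, by a median log2 fold change of -1.77 against -0.31 over all tested genes, and 45 of 46 were negative. In this fit 4 passed as lower (6.09% of all tested genes passed as lower) and 0 as higher (3.26% of all), with 31 lower at an unadjusted p under 0.05 (17.5% of all) and 0 higher (8.96%). The 4 were Polr1b (-3.21 ± 0.77, adjusted p = 0.0177), Npm1 (-2.72 ± 0.65, adjusted p = 0.0167), Wdr43 (-2.64 ± 0.65, adjusted p = 0.0195) and Noc4l (-2.32 ± 0.62, adjusted p = 0.0281), all by edgeR. With library totals 22 genes passed as lower (13.7% of all), with no filter 39 (5.93%) and by DESeq2 12 (7.21%). In the pairs of equal number, 40 genes were lower in S3 in all 3 (26.7% of all), whereas the groups did not overlap for only 5 (14.2% of all).

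S2 replicate 3 was close to the S3 libraries, with 0.288% of its counts in the 46 genes when S3 replicate 1 had 0.291%. Without S2 replicate 3, 28 genes passed as lower (8.62% of all), and without all libraries numbered 3, 41 of 46 passed as lower (11.6% of all) and 0 as higher (7.33%), with a median of -1.78. Without S2 replicate 1, 0 genes passed by edgeR (13 were lower at an unadjusted p under 0.05, as were 14% of all, and 3.02% of all passed as lower). With S2 replicate 2, S3 replicate 1 or S3 replicate 3 left out, 2, 2 and 1 passed as lower, against 2.92%, 4.60% and 3.49% of all. Noc4l, a small subunit factor, was highest in S2, at 137, 104 and 21.4 CPM against 11.0, 28.9 and 12.3 in S3. S2 and S3 overlapped for this gene at S2 replicate 3 and S3 replicate 2.

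Along the earlier steps, where CD71 and then Ter119 are gained, no gene passed the test. In S0-Medium against S0-Low, 0 of 46 passed (0% of all tested genes lower and 0% higher), 0 had an unadjusted p under 0.05 (1.47% of all lower and 1.78% higher), and 0 passed by DESeq2. Yet 44 fold changes were positive, with a median of 0.25 against 0.03 over all tested genes, and 24 genes were higher in all 3 pairs (18.6% of all). Ncl was among them, at 2799, 2742 and 798 CPM in S0-Low and 3169, 4034 and 1115 in S0-Medium.

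In S1 against S0-Medium, 0 passed by edgeR (0% of all lower, 0% higher) and 0 by DESeq2, and by edgeR 0 had an unadjusted p under 0.05 (5.18% of all lower and 1.68% higher). The median was 0.02, with 25 positive and 21 negative values. In S2 against S1, 0 passed by edgeR (0% of all lower, 0% higher) and 0 by DESeq2, and by edgeR 0 had an unadjusted p under 0.05 (3.03% of all lower and 1% higher). There, 42 were negative, with a median of -0.26 against -0.05, and 27 were lower in all 3 pairs (20.7% of all). S1 and S2 set against S0-Low, whose libraries these comparisons share, also gave 0 calls by edgeR and by DESeq2 and 0 at an unadjusted p under 0.05, with medians of 0.26 and -0.04. Of all tested genes, 1.95% and 6.92% passed by edgeR as lower in these comparisons and 0.979% and 4.37% as higher. At an unadjusted p under 0.05 these shares were 9.98% and 15.3% lower and 6.06% and 10.8% higher.

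**Figure D4:**
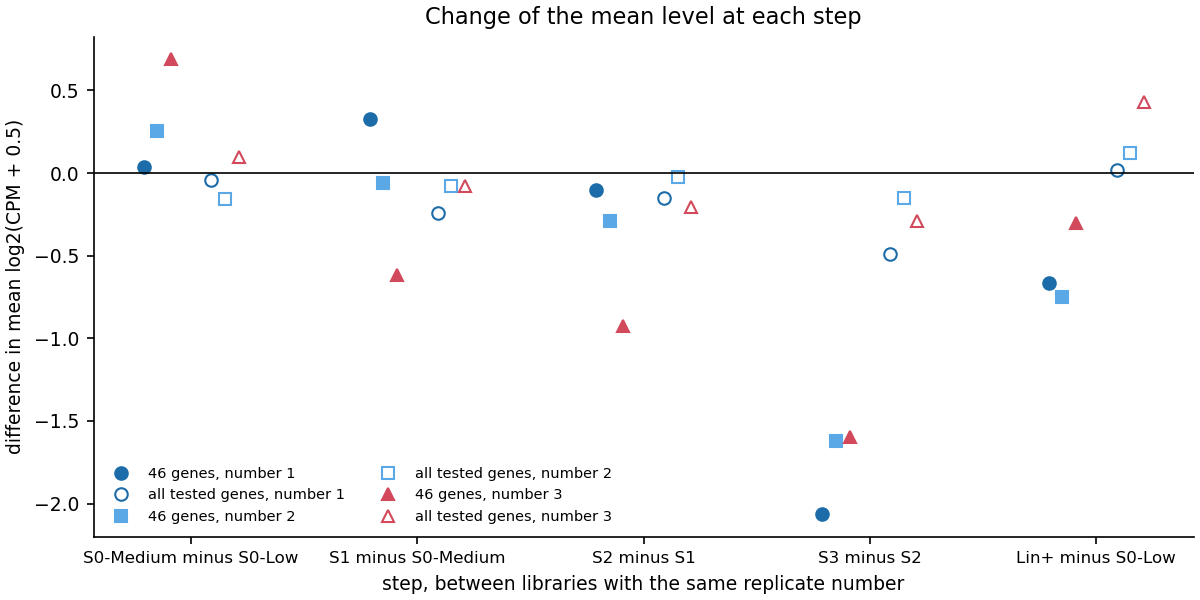
Difference in mean log2(CPM + 0.5) between libraries of the same replicate number at each erythroid step and for Lin+ against S0-Low, for the 46 genes (filled) and all tested genes (open). From S2 to S3 the values were -2.06 to -1.60 for the 46 genes and -0.49 to -0.15 for all tested genes, while earlier steps differed in sign or size between numbers.

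Lin+ was compared with S0-Low, the least mature lineage-negative cells, in a fit of all 18 libraries with 17755 genes tested. The 46 genes all had lower fitted levels in Lin+, by a median of -0.73 against 0.02 over all tested genes, but 0 passed (0.22% of all lower, 0.496% higher), 0 had an unadjusted p under 0.05 (2.96% of all lower and 6.89% higher), and 0 passed by DESeq2. In the pairs, 31 genes were lower in all 3 (17.1% of all), and for 8 every Lin+ library lay below every S0-Low library (6.96% of all). The mean of the 46 genes differed by -0.67, -0.75 and -0.30 in replicates 1, 2 and 3, a smaller shift than in S3. Without the libraries numbered 3 the median was -0.75, again with 0 calls. Gar1 (-1.24 ± 0.97) and Polr1b (-1.24 ± 0.70) had the largest fold changes and Bop1 (-0.19 ± 0.80) the smallest.

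Most genes followed one profile. Over the 15 erythroid libraries, the Pearson correlation of each gene's log2(CPM + 0.5) with the mean of the other 45 ranged from 0.90 (Gar1) to 0.99 (Rrp1b) for 41 genes. It was 0.83 for Polr1c, 0.80 for Utp18, 0.73 for Bysl, 0.68 for Ebna1bp2 and -0.38 for Ubtf. The points share libraries, scaling and the low replicate 3, so these values describe likeness only. Centred on each population's mean, so that only replicates differ, they were 0.93 for Bysl, 0.74 for Ebna1bp2 and 0.12 for Ubtf, and 0.99 for Wdr43. Bysl thus differed from the group between populations more than between replicates, and Ubtf in both.

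**Figure D5:**
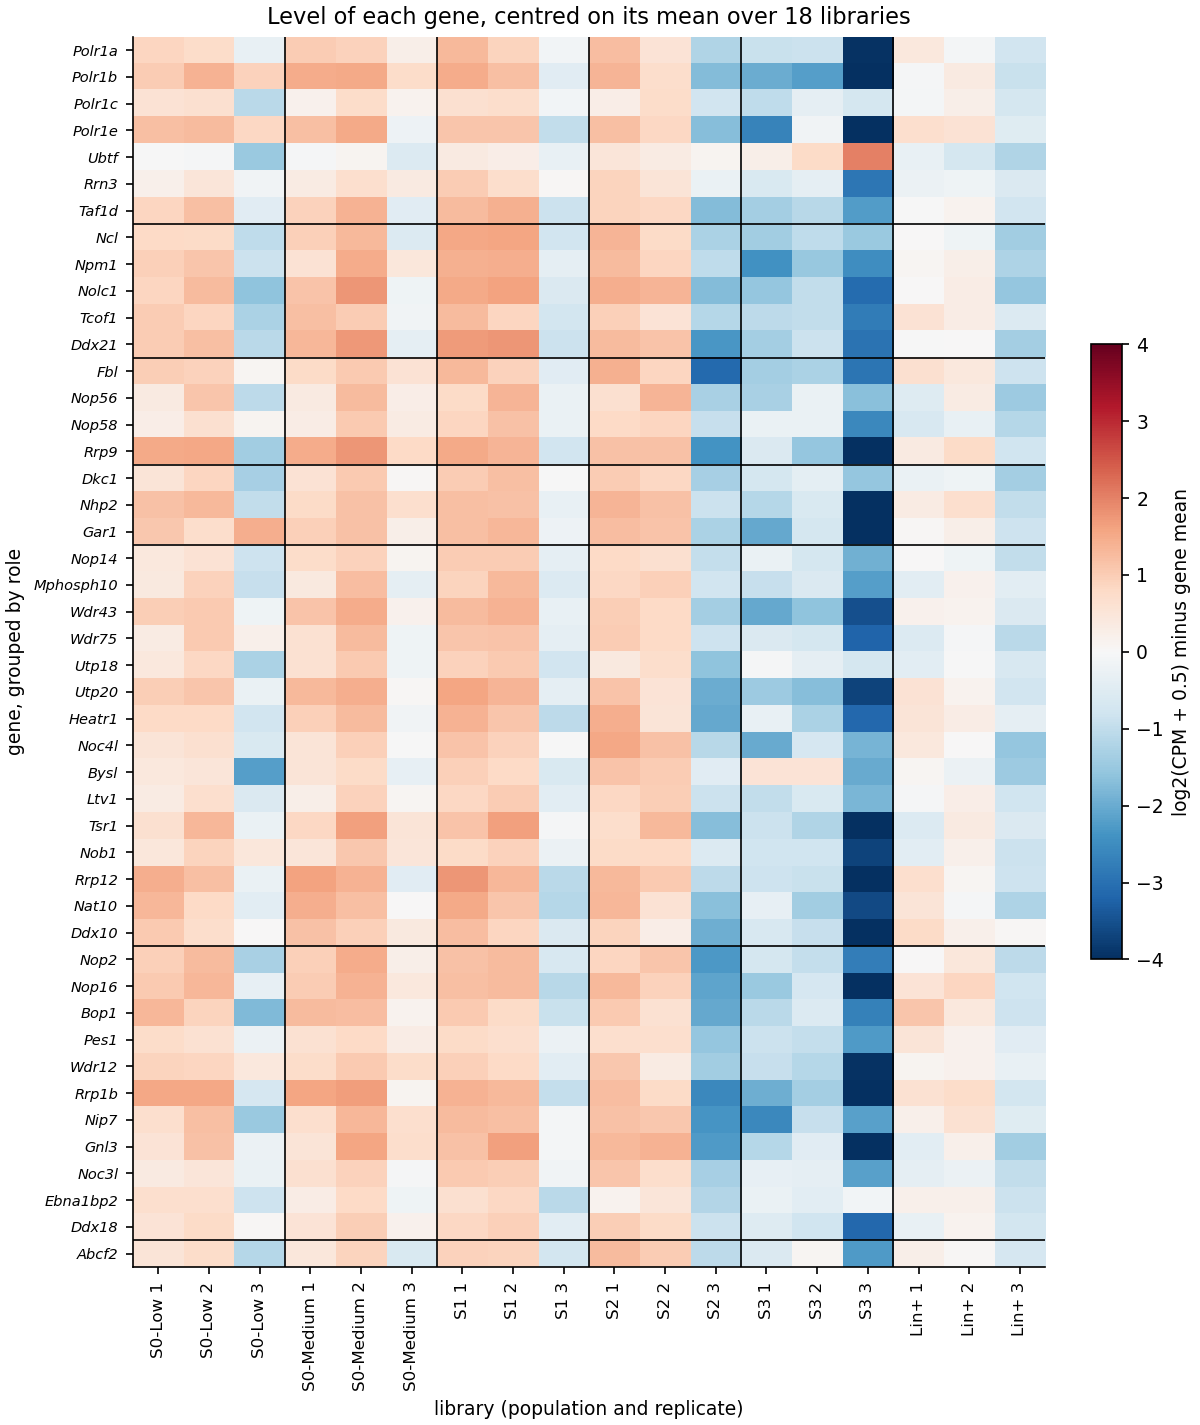
Log2(CPM + 0.5) of each of the 46 genes in the 18 libraries, centred on the gene's mean, with colours limited at -4 and 4, genes in blocks by role and libraries by population and replicate. The S3 columns and the replicate 3 columns of S0-Low, S1, S2 and Lin+ were mostly blue (lower), replicates 1 and 2 of S0-Low, S0-Medium, S1 and S2 mostly red (higher), and Ubtf was red in S3.

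Of 121 other ribosome biogenesis genes listed for comparison, 119 were tested. In S3 against S0-Low, 37 passed as lower, when 22.4% of all tested genes did, and 2 as higher (13.4% of all), with a median log2 fold change of -0.94 against -0.54 over all tested genes. In S3 against S2, 6 passed as lower (6.09% of all) and 1 as higher (3.26%), with a median of -1.04 against -0.31. The largest falls among those called in S3 against S0-Low were in Nle1, a large subunit factor (-3.88 ± 1.37, adjusted p = 0.0377), Sdad1, a factor of large subunit maturation (-3.75 ± 0.94, adjusted p = 0.00641) and Cd3eap, a Pol I subunit (-3.73 ± 1.15, adjusted p = 0.0207), all by edgeR. The rises were in Riok3, a kinase of late small subunit precursors (2.66 ± 0.37, adjusted p = 8.66e-05), and Sbds, which frees the joining face of the large subunit (0.93 ± 0.29, adjusted p = 0.0211), again by edgeR. In the 6 other comparisons 0 of the 119 passed by edgeR, and 0 had an unadjusted p under 0.05 except 1 in Lin+ against S0-Low. Their medians there ran from -0.48 (Lin+ against S0-Low) to 0.20 (S1 against S0-Low).

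Genes that carry snoRNA genes were frequent in the set. In the GENCODE vM1 annotation, 8 of them (17.4%) hold annotated snoRNA genes within their bounds, 28 entries in all, against 1.20% of 22380 protein-coding genes. The 8 were Taf1d with 8 entries, Nop56 and Nop58 with 4 each, Ncl, Gnl3 and Wdr43 with 3 each, Tsr1 with 2 and Dkc1 with 1, so the snoRNA hosts included genes that passed in S3 against S0-Low (Taf1d, Wdr43 and Tsr1) and genes that did not. The snoRNA entries themselves were listed in the count table at 0 in every library. Besides Fbl, Ddx18, Npm1 and Wdr12, over 10% of the 31-base stretches occurred in other transcripts for Taf1d (23.7%) and Nop56 (21.1%), whose levels are uncertain for that reason. The annotation places 14 of the 46 genes antisense to an overlapping gene, and reads of the partners cannot be told apart unless strand was used. Of those that passed in S3 against S0-Low, these were Polr1a, Taf1d, Tsr1 (with Srr), Pes1 and Wdr12 (with Carf). The others were Polr1e (Fbxo10), Nop56 (Idh3b), Rrp9 (Parp3), Dkc1 (Mpp1), Nhp2 (Rmnd5b), Nop14, Bysl (Ccnd3), Bop1 (Scx) and Gnl3 (Glt8d1).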

How the data were processed

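The authors deposited 1 table of counts, whole numbers per gene for 18 nascent RNA libraries, and per the labels used kallisto 0.43.0 with GRCm38. The transcript set, the treatment of introns and strand, and any rounding are not given in the sources used here. Totals ran from 9452476 to 40567976 counts. Intervals were not computed, limits from counts cover counting error only, and no molecular identifiers are stated, so PCR copies were counted as reads.

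Genes were tested with edgeR 4.0.16 (quasi-likelihood test, TMM factors, filterByExpr, population as the only term, Benjamini-Hochberg adjustment over all tested genes). The SE given with edgeR fold changes was derived as the absolute log2 fold change divided by the square root of the test's F statistic. The 15 erythroid libraries entered 1 fit (16555 genes), and all 18 the comparison with Lin+ (17755 genes). DESeq2 1.42.0 was an alternative, and the code was tested on simulated data. Levels are CPM on TMM-adjusted sizes of all 18 libraries, and means use log2(CPM + 0.5). Counts of replicates differed beyond sampling noise in every population. The study calls them biological replicates, but no source used here says whether these were separate animals, litters or pools, so p-values measure only the spread between these samples.

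Members, role groups, marker lists and the other pathway genes were chosen with earlier results of these data known. Values in every library are given, for each role group, for the genes with the largest and smallest change of S3 against S0-Low, the highest level per kb in S0-Low, or a sign opposite to the group, and more shortly for the others that passed. Same-numbered libraries deviated together between S0-Low, S0-Medium, S1 and S2 in neighbouring order (correlation of deviations from group means 0.24 to 0.39 in every pair) and also in S1 against S0-Low (0.21 to 0.22). There, a replicate block changed no call among the 46 genes. Gene names, transcript lengths, snoRNA genes and shared sequence came from GENCODE vM1, coordinates and promoters from RefSeq (GRCm38.p6).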

Additional observations from a re-analysis of the deposited data

How the results depend on the processing

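In S3 against S0-Low the number of the 46 genes called, 18 in the report in either direction, was 42 with library totals (44.6% of all tested genes called in either direction), 39 with no filter (21.6%), 34 by DESeq2 (26.3%) and 43 without the libraries numbered 3 (37.7%), and ran from 7 without S3 replicate 3 (24.6%) to 27 without S0-Low replicate 3 (32.7%). In S3 against S2 the 4 calls, here and in the alternatives all lower, became 22 with library totals (13.7% of all lower), 39 with no filter (5.93%), 7 with a minimum of 10 counts per compared library (41 genes tested, 7.61%), 0 by edgeR with only the 6 libraries compared (24 lower at an unadjusted p under 0.05, against 9.93% of all, and 0.193% of all passed as lower), 12 by DESeq2 (7.21%) and 41 without the libraries numbered 3, and ran from 0 without S2 replicate 1 (3.02%) to 28 without S2 replicate 3 (8.62%). The cause of these shifts was not tested.

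The replicate block, fitted as a pairing of equal numbers, gave 42 calls in S3 against S0-Low (42.4% of all tested genes called) and 39, all lower, in S3 against S2 (11.3% of all lower). In these comparisons, and in S2 and Lin+ against S0-Low, deviations of same-numbered libraries correlated at 0.02 to 0.21. At least 1 pair each was under 0.1 (in S3 against S2 narrowly, at 0.0996), the bound set for treating numbers as pairs, so the fit without the block is the one reported. The other comparisons kept 0 calls among the 46 genes under every alternative run.

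Polr1b, Npm1, Utp20, Wdr12 and Wdr43 passed in S3 against S0-Low in all 16 alternatives. The log2 fold change of Bysl turned negative with size factors by relative log expression (-0.0234), library totals (-0.632), a minimum of 10 counts per compared library (-0.167), only the 6 libraries compared (-0.0697) and DESeq2 (-0.0222), and without S0-Low replicate 3 (-0.445), S3 replicate 1 (-0.224) or S3 replicate 2 (-0.212), the range with 1 library left out being -0.445 to 0.553. The mean differences of the 46 genes between populations moved by less than the SD between libraries in all 13 alternatives each. Each step before S3 was itself smaller than that SD, so for these steps the bound allows a change of sign. Leaving out S0-Low replicate 3 turned S0-Medium minus S0-Low negative (S0-Low replicates 1 and 2 at 7.54 and 7.69, S0-Medium mean 7.47). Leaving out the libraries numbered 3 turned S1 minus S0-Medium positive (S1 at 7.91 and 7.89, S0-Medium at 7.58 and 7.95). Polr1e, Rrp9 and Gar1 had 0 counts in S3 replicate 3, although this library, with 30056070 counts, was deeper than S3 replicate 1, with 17978747.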
